A study of Mus musculus with 24 samples.

Results

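The alanine tRNA 5′ fragments described here are transfer RNA fragments (tRFs) shorter than 30 nt whose sequence code starts with R29P4P, RK9P4P or R2IP4P, which stand for 5′ ends of alanine tRNA, or with RKVP4P, which stands for the 5′ end of a cysteine tRNA. A tRF is named by its length and a code that spells its sequence, and the rule reads only that name. It found 18 of the 8456 tRFs in the table. R29P4P accounted for 14 of them with 14160 counts over all 24 libraries, and RK9P4P for 4 with 14 counts. The rule matched no row for R2IP4P or RKVP4P, so cysteine fragments are not analysed here and every fragment below reads as alanine tRNA. No fragment of these codes had 30 nt or more in the table. Together the 18 fragments held 1.70% of all tRF counts.

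Livers of C57Bl/6J mice were compared in 3 groups of 8 samples. AM132 mice ate a high fat diet for 11 weeks until obese and were then given, by vein, a 16-mer locked nucleic acid oligonucleotide that binds miR-132. AM608 mice were made obese in the same way and received a 15-mer of the same chemistry against miR-608, a primate miRNA with no predicted match in mice. Both oligonucleotides were given at 3.3 mg/kg on 3 days in a row, with livers taken 7 days after treatment. RCD mice were lean, of matched age, ate regular chow and are described without an injection. Uninjected obese mice are not among the groups, so diet and injection differ together between either obese group and RCD. Age and sex are not stated further, and the labels do not tie samples to separate mice, so the p-values measure only the spread between these samples.

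Alanine tRNA carries alanine to the ribosome. When a tRNA is cut, its 5′ part can persist as a small RNA; cuts in the anticodon loop leave long 5′ fragments, and cuts further upstream, in or near the D arm, leave shorter ones like these. In human cells, the long 5′ fragments of alanine and cysteine tRNA, which begin with a run of guanines, are known to repress the initiation of translation, and that guanine run is needed for it.

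The sequences below show how the fragments nest, with the guanine run at the 5′ end in capitals. They were decoded from the names in the table, and all 8456 names encoded back to themselves. The first 5 are the fragments named in the results, the next is the longest with counts in more than 2 libraries, and the last is the longest of RK9P4P.
tRF-16-R29P4PE: GGGGatgtagctcagt
tRF-18-R29P4P04: GGGGatgtagctcagtgg
tRF-19-R29P4PJZ: GGGGatgtagctcagtggt
tRF-20-R29P4P9L: GGGGatgtagctcagtggta
tRF-24-R29P4P9LH9: GGGGatgtagctcagtggtagagc
tRF-26-R29P4P9L5HD: GGGGatgtagctcagtggtagagcgc
tRF-24-RK9P4P9LH9: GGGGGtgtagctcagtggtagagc

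All R29P4P fragments of 16 to 26 nt were starts of the same 26-nt sequence and differed only in where they end. Bases 10 to 13, gctc, are the reverse complement of bases 21 to 24, gagc, which are the strands of the D stem. The fragments of 16 to 20 nt therefore end in the loop between those strands, at bases 14 to 20, and the 24-nt fragment ends at the last base of the stem. RK9P4P fragments differ by having 5 guanines in place of 4 at the 5′ end. The annotation used here (RefSeq, GRCm38) lists 33 alanine tRNA genes, 13 with the anticodon AGC, 9 with CGC and 11 with TGC. It was available without tRNA sequences, so the fragments were not matched to these genes.

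Counts were concentrated at a few lengths. The 18-nt fragment had 4985 counts over the 24 libraries and the 24-nt fragment 3491. The fragments of 19, 20 and 16 nt had 1506, 1207 and 1201 counts, and those of 21, 23 and 22 nt had 659, 635 and 335. The 26-nt fragment had 123 counts and the 17-nt fragment 13, although it lies between the 16-nt and 18-nt fragments in length. Each of the other 8 had 6 counts or fewer. The filter on low counts kept 8 of the 18 fragments, all of R29P4P and of 16 or 18 to 24 nt. The other 10 were not tested.

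AM132 libraries held 25849 to 80578 tRF counts each, AM608 libraries 29889 to 46567 and RCD libraries 20580 to 39077. Except at 18 and 24 nt, a tested fragment had between 1 and 113 counts in any library other than AM132 library 8, which limits the precision. AM132 library 8 stood apart: it held counts for 4099 different tRFs, against 1589 to 1967 in the other 7 AM132 libraries, and tRFs that entered the test made up 48.4% of its counts, against 86.9 to 90.4% in the other 23 libraries. Changes of the 16-, 18-, 19-, 20- and 24-nt fragments are therefore given with and without it. It also had the highest erythroid (1519 CPM, against 269 to 743 CPM in the other 7) and endothelial (58548 CPM, against 42050 to 48393 CPM) miRNA sums of the AM132 group. Its hepatocyte sum was the highest as well, at 633166 CPM, next to 631486 CPM in AM132 library 5. For miRNAs, CPM are counts per 1000000 of the miRNA counts that passed a filter on low counts, scaled by TMM factors. miR-132-3p, the miRNA that the AM132 oligonucleotide binds, had 0 counts in all AM132 libraries and averaged 23.3 ± 7.01 CPM in AM608 and 20.7 ± 12.7 CPM in RCD (SD, n = 8 each). The 4 hepatocyte miRNAs, all detected, had summed levels of 493225 to 633166 CPM across AM132 libraries, 322467 to 498098 CPM across AM608 libraries and 262999 to 541817 CPM across RCD libraries. RCD library 3 had the highest summed neuronal (1452 CPM), muscle (331 CPM) and leukocyte (1006 CPM) miRNAs of the RCD group and the lowest hepatocyte sum. Its erythroid (1773 CPM), endothelial (43231 CPM) and mesenchymal (25343 CPM) sums were also the highest of that group. Values without this library are given below. Over the RCD libraries together, 8 of 8 neuronal, 4 of 4 muscle and 3 of 5 leukocyte markers had counts. Only those 3 leukocyte markers were among the miRNA names with deposited counts. The part of these markers in the results was not tested. These are bulk samples, so fewer cells of a type and less RNA per cell cannot be told apart.

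All fragment values below are CPM of tRFs, which are counts per 1000000 of the tRF counts that entered the test, scaled by TMM factors. Changes were tested with edgeR's quasi-likelihood test over 295 tRFs with Benjamini-Hochberg adjustment, and a fragment is called when its adjusted p is under 0.05. A log2 fold change of 1 is a doubling. The 3 comparisons share samples pairwise, so their values are not independent of each other.

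**Figure D1:**
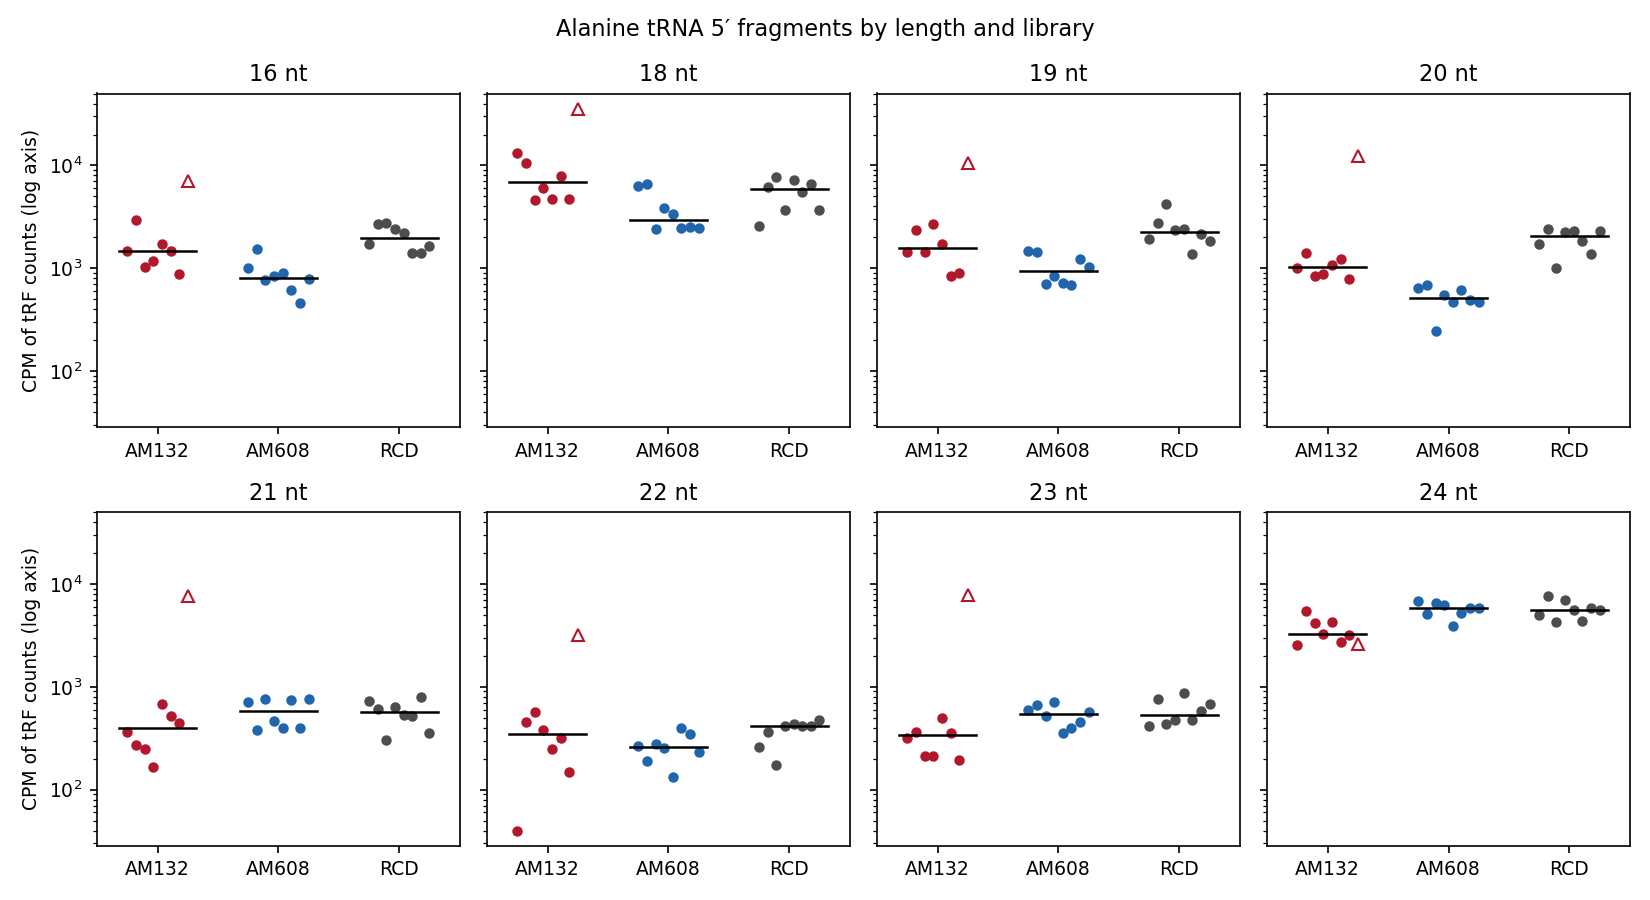
CPM of each tested alanine 5′ fragment (log axis) in each library, by length, for AM132, AM608 and RCD. Each symbol is a library, lines are group medians, and the open triangle is AM132 library 8. That library lies above the other AM132 libraries at every length except 24 nt, and AM608 lies below both other groups at 20 nt.

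The 24-nt fragment, which ends with the D stem, was lower in livers of AM132 mice than in either other group, and this did not rest on library 8. tRF-24-R29P4P9LH9 had 2560, 3238 and 5460 CPM (lowest, median and highest) in AM132, 3941, 5851 and 6880 CPM in AM608, and 4305, 5539 and 7706 CPM in RCD. Of the 8 AM132 libraries, 5 lay below every library of the other groups, and the ranges overlapped. AM132 libraries held 64 to 138 raw counts of it, AM608 libraries 147 to 233 and RCD libraries 83 to 211. Library 8, with 106 counts and 2606 CPM, was the second lowest of its group, whereas it was the highest for the other 7 tested fragments. AM132 against AM608 gave a log2 change of -0.68 ± 0.18 (SE, edgeR adjusted p = 0.0229), and AM132 against RCD gave -0.68 ± 0.18 (SE, edgeR adjusted p = 0.00890). Without AM132 library 8 the changes were -0.67 ± 0.18 (SE, edgeR adjusted p = 0.0469) and -0.62 ± 0.18 (SE, edgeR adjusted p = 0.0189). AM608 and RCD did not differ past the threshold, with a log2 fold change of 0.01 (SE 0.18, adjusted p = 0.984 by edgeR), and 0.05 without AM132 library 8 (SE 0.17, adjusted p = 0.865 by edgeR).

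The scale matters for this fragment. Relative to miRNA totals in place of tRF counts, the log2 fold change was -0.46 against AM608 (edgeR adjusted p = 0.150) and -0.15 against RCD (edgeR adjusted p = 0.545). Here and below, miRNA totals are the miRNA counts that passed a filter on low counts, scaled by TMM factors. On that scale the median of all tested tRFs moved to 0.25 and 0.65, so the 24-nt fragment lay at -0.71 and -0.79 relative to it. Relative to the totals of all tRF counts the changes were -0.69 (edgeR adjusted p = 0.0537) and -0.58 (edgeR adjusted p = 0.0628). The call against AM608 was also lost without AM132 library 1 or AM608 library 1, 3, 7 or 8, when taken singly, with an edgeR adjusted p of up to 0.0543. The call against RCD held in all 24 such refits and was lost with no filter on low counts (edgeR adjusted p = 0.262).

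The 20-nt fragment, which ends with the D loop, was lowest in AM608. tRF-20-R29P4P9L had 784, 1033 and 12364 CPM in AM132, 244, 517 and 690 CPM in AM608, and 1000, 2045 and 2421 CPM in RCD. Without library 8 the highest AM132 value was 1399 CPM. Every AM132 library was above every AM608 library, with or without library 8, and every AM608 library was below every RCD library. AM132 and RCD overlapped. In raw counts the 7 other AM132 libraries had 24 to 37 of this fragment and library 8 had 503, against 8 to 23 in AM608 and 23 to 60 in RCD. Among all 295 tested tRFs, 0.678% had AM132 wholly above AM608 (1.02% without library 8) and 0.339% had AM608 wholly below RCD, and this was the only tested alanine fragment whose groups did not overlap in either comparison.

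AM132 against AM608 gave a log2 fold change of 2.24 ± 0.50 for the 20-nt fragment (SE, edgeR adjusted p = 0.0103). Without library 8 it was 0.94 ± 0.21 (SE, edgeR adjusted p = 0.0112), so the call held and the size on the log2 scale was smaller. limma voom on all libraries gave 1.48 (limma adjusted p = 0.0591). AM608 against RCD gave -1.86 ± 0.50 (SE, edgeR adjusted p = 0.0298), and -1.81 ± 0.21 without AM132 library 8 (SE, edgeR adjusted p = 4.90e-07). With all 24 libraries, this call was lost without AM608 library 3, 4, 5, 6 or 8 or RCD library 2, 4, 5 or 8, taken singly, at an edgeR adjusted p of 0.0520 to 0.0719 and a log2 fold change of -1.88 to -1.74. On the scale of miRNA totals AM608 against RCD gave -1.55 (edgeR adjusted p = 0.0751), or -1.86 relative to the median of all tested tRFs, which moved to 0.32. AM132 against RCD depended on library 8: the log2 fold change was 0.38 ± 0.47 with it (SE, edgeR adjusted p = 0.646) and -0.88 ± 0.21 without it (SE, edgeR adjusted p = 0.00526). Without library 8, then, the 20-nt fragment was highest in RCD, lower in AM132 and lowest in AM608, and all 3 differences passed the test.

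The 18-nt fragment, the one with the most counts, was higher in AM132 than in AM608 with all libraries. tRF-18-R29P4P04 had 4606, 6941 and 35691 CPM in AM132, 2414, 2966 and 6649 CPM in AM608, and 2600, 5844 and 7784 CPM in RCD. Without library 8 the AM132 median was 6008 CPM and the highest value 13122 CPM. AM132 overlapped both other groups. The log2 fold change of AM132 against AM608 was 1.53 ± 0.38 (SE, edgeR adjusted p = 0.0228), and without library 8 it was 0.93 ± 0.28 (SE, edgeR adjusted p = 0.0930), so the call was lost. Without both library 8 and RCD library 3 it was 0.98 ± 0.28 (SE, edgeR adjusted p = 0.0496), again past the threshold. With library 8 kept, the call was lost without AM608 library 3, 6, 7 or 8, taken singly, at an edgeR adjusted p of 0.0530 to 0.0585. AM132 against RCD gave 1.01 ± 0.38 (SE, edgeR adjusted p = 0.0677). It was 0.44 without AM132 library 8, and it passed the threshold without AM132 library 3, 5 or 7 or RCD library 3, taken singly, at an edgeR adjusted p of 0.0361 to 0.0487. AM608 against RCD gave -0.52 ± 0.38 (SE, edgeR adjusted p = 0.405), and -0.49 ± 0.28 without AM132 library 8 (SE, edgeR adjusted p = 0.242).

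The 16-nt and 19-nt fragments end in the D loop as well and had their lowest medians in AM608. tRF-16-R29P4PE had 882, 1476 and 7104 CPM in AM132, 459, 810 and 1537 CPM in AM608, and 1408, 1950 and 2739 CPM in RCD. tRF-19-R29P4PJZ had 835, 1579 and 10545 CPM in AM132, 689, 940 and 1476 CPM in AM608, and 1363, 2256 and 4261 CPM in RCD. For both fragments AM608 overlapped RCD at the ends of their ranges and overlapped AM132 more widely. Without library 8 the highest AM132 values were 2978 CPM at 16 nt and 2694 CPM at 19 nt.

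Against AM608, AM132 was higher by 1.37 ± 0.35 at 16 nt (log2 fold change and SE, edgeR adjusted p = 0.0229) and by 1.44 ± 0.41 at 19 nt (edgeR adjusted p = 0.0337). Without library 8 the values were 0.77 ± 0.25 (SE, edgeR adjusted p = 0.104) and 0.64 ± 0.27 (SE, edgeR adjusted p = 0.233), and both calls were lost. AM608 against RCD gave -1.23 ± 0.36 at 16 nt (SE, edgeR adjusted p = 0.0432) and -1.23 ± 0.41 at 19 nt (SE, edgeR adjusted p = 0.0723). Without AM132 library 8, which then no longer enters the shared spread, they were -1.19 ± 0.25 (SE, edgeR adjusted p = 0.00355) and -1.19 ± 0.26 (SE, edgeR adjusted p = 0.00507). AM132 against RCD was not called at either length, and its sign turned without library 8: 0.14 against -0.42 at 16 nt and 0.21 against -0.55 at 19 nt, on the log2 scale. The 16-nt call against AM608 was further lost without AM608 library 3, 6, 7 or 8, taken singly, and the 19-nt call was lost when any 1 AM608 library or RCD library 4 was left out. The 16-nt call of AM608 against RCD held in 10 of the 24 refits without 1 library and was lost on the scale of miRNA totals (edgeR adjusted p = 0.157) and with no filter (edgeR adjusted p = 0.383).

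The fragments of 21, 22 and 23 nt, which end within the second strand of the D stem, were the scarcest tested. Their medians ran from 339 to 401 CPM for AM132, 259 to 585 CPM for AM608 and 417 to 569 CPM for RCD, and all groups overlapped at each length. Against AM608 the log2 fold changes of AM132 were 1.19, 1.38 and 1.27, with edgeR adjusted p-values of 0.235, 0.140 and 0.235. Without library 8 they were -0.64, 0.19 and -0.83, with edgeR adjusted p-values of 0.251, 0.819 and 0.0566, so the sign turned at 21 and 23 nt. Without library 8 the 23-nt fragment was lower in AM132 than in RCD, at -0.94 ± 0.24 (SE, edgeR adjusted p = 0.00839), against 1.12 ± 0.63 with it (SE, edgeR adjusted p = 0.212). This fragment was singled out for that turn.

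Counted over the fragments, AM132 against AM608 called 5 of the 8 tested, 4 higher (16, 18, 19 and 20 nt) and 1 lower (24 nt). Of all tested tRFs, 5.08% were called, 4.07% higher and 1.02% lower. Their median log2 fold change was 1.38, against -0.01 over all tested tRFs. Without library 8, 2 of 8 were called, 20 nt higher and 24 nt lower, where 1.92% of 313 tested tRFs were called, 1.28% higher and 0.639% lower. The medians were then 0.42 and -0.05. The count was 1 without AM608 library 3, 7 or 8, it was 2 without AM608 library 6, and it was 3 without AM608 library 1. AM608 against RCD called 2 of 8, both lower (16 and 20 nt), where 4.41% of all tested tRFs were called and 2.71% called lower, with medians of -0.51 over the fragments and -0.03 over all. Without AM132 library 8 it called 3, all lower (16, 19 and 20 nt), where 9.9% were called and 4.47% called lower. AM132 against RCD called 1 of 8, the 24-nt fragment, where 15.3% of all tested tRFs were called and 9.15% called lower, so that share is near the background. Without library 8 it called 3, all lower (20, 23 and 24 nt), where 12.5% were called and 9.27% called lower, and the median over the fragments was -0.55 in place of 0.63. Without AM132 library 8 and RCD library 3 together, 3 fragments were called in each comparison, where the shares of all tested tRFs were 4.56% for AM132 against AM608, 14.3% for AM608 against RCD, and 17.6% between AM132 and RCD.

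**Figure D2:**
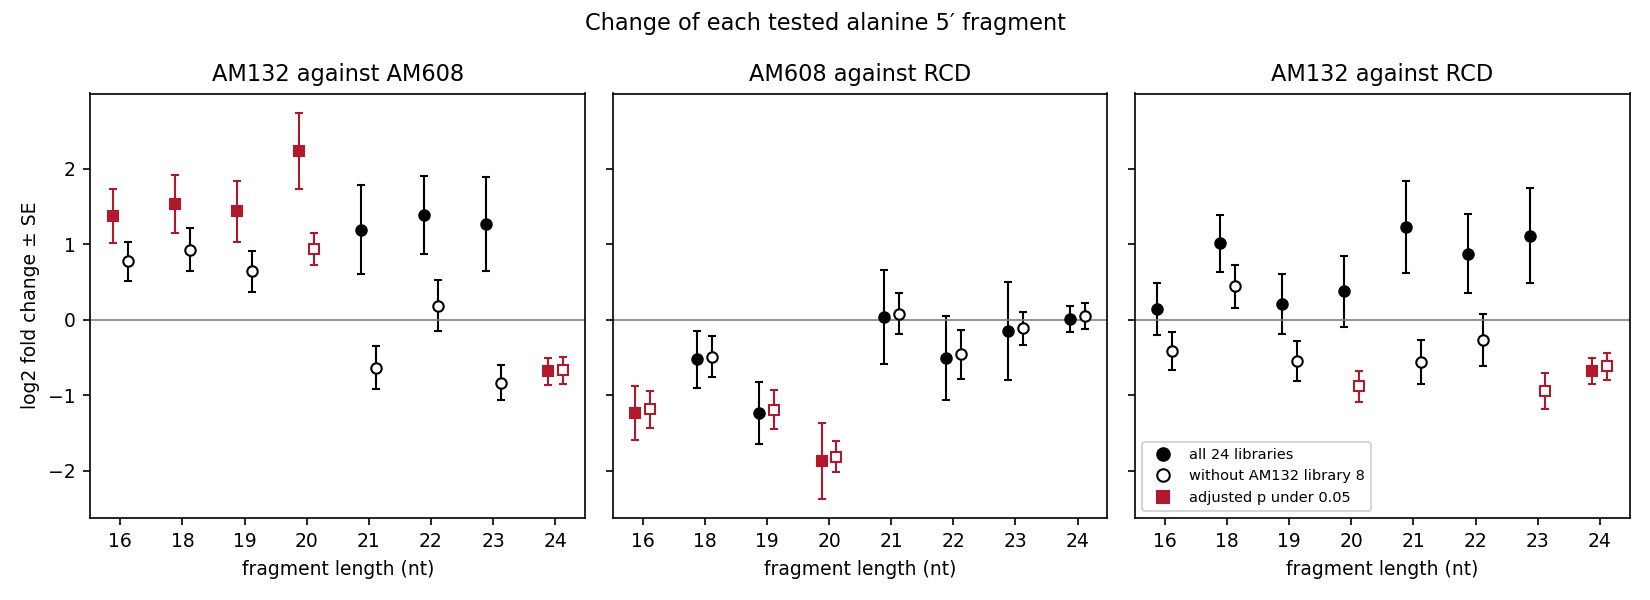
Log2 fold change ± SE of each tested fragment by length, with AM132 over AM608 (left), AM608 over RCD (middle) and AM132 over RCD (right). Filled symbols use all 24 libraries and open symbols leave out AM132 library 8; red squares have an edgeR adjusted p under 0.05. At 24 nt both estimates of AM132 lie at or below -0.62, and at 21 to 23 nt the AM132 estimates drop without library 8.

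The lengths did not move as a block, which shows in the make-up of the R29P4P counts within each library, a measure that needs no scaling between libraries. It is a description with no test. The 24-nt fragment made up 2.99, 22.4 and 31.1% of the R29P4P counts (lowest, median and highest) in AM132, 30.6, 45.4 and 53.0% in AM608, and 20.3, 31.4 and 36.1% in RCD. Without library 8 its lowest AM132 share was 12.5%. The 18-nt fragment made up 31.0, 41.0 and 63.9% in AM132, 19.8, 24.8 and 39.8% in AM608, and 18.1, 29.6 and 36.8% in RCD. The median share was thus larger for the 18-nt than for the 24-nt fragment in AM132, and larger for the 24-nt fragment in AM608. The 20-nt share ranged over 4.87 to 14.2% for AM132 (up to 7.95% without library 8), 2.00 to 5.37% for AM608 and 4.72 to 13.7% for RCD.

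**Figure D3:**
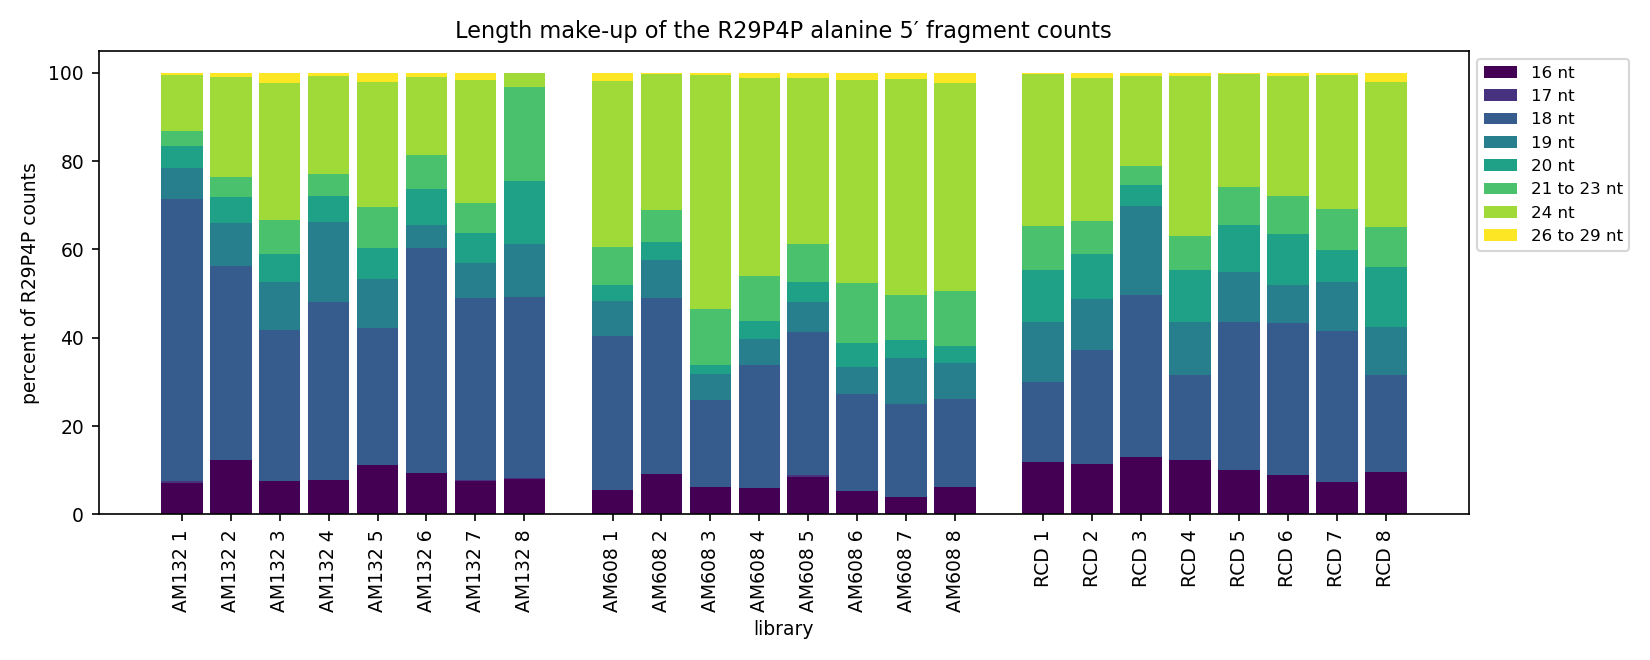
Share of the counts of the R29P4P fragments held by each length, in percent, for every library of AM132, AM608 and RCD. The 24-nt share spans 2.99 to 31.1% for AM132, 30.6 to 53.0% for AM608 and 20.3 to 36.1% for RCD, and AM132 library 8 has the lowest.

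Ratios of 2 fragments in the same library show the order of the groups. The count of the 24-nt fragment over that of the 18-nt fragment was 0.0730, 0.533 and 0.910 in AM132, 0.769, 1.86 and 2.68 in AM608, and 0.553, 1.07 and 1.90 in RCD. It was above 1 in 0 of 8 AM132, 7 of 8 AM608 and 4 of 8 RCD libraries. The ratio of 24 nt over 20 nt set AM608 apart instead. It was 2.23 to 4.92 in the 7 other AM132 libraries and 0.211 in library 8, against 7.41 to 26.5 in AM608 and 2.37 to 4.30 in RCD. AM608 thus overlapped neither other group in that ratio, while AM132 without library 8 and RCD overlapped. The fragments were picked with their changes known, so these ratios add no independent evidence.

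**Figure D4:**
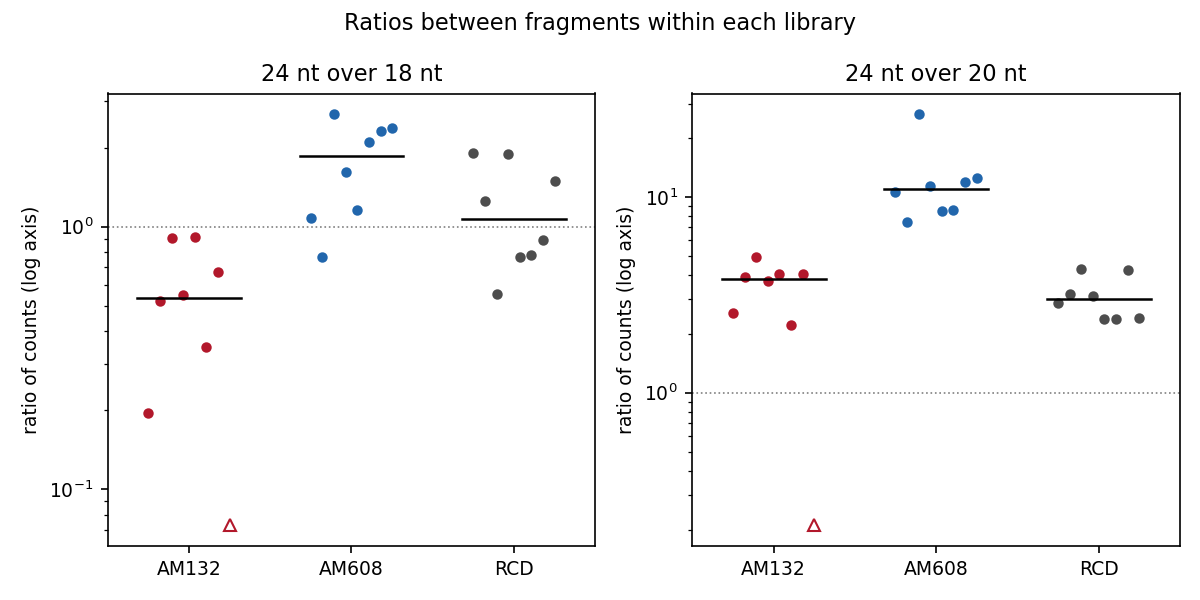
Ratio of the count of the 24-nt R29P4P fragment to that of the 18-nt fragment (left) and of the 20-nt fragment (right) in each library (log axes), with group medians as lines and AM132 library 8 as the open triangle. All AM132 libraries lie under 1 on the left (0.0730 to 0.910), and AM608 lies above the other groups on the right (7.41 to 26.5).

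Summed over all 18, the fragments made up 1.18, 1.51 and 4.41% of tRF counts in AM132, 1.01, 1.11 and 1.58% in AM608, and 1.22, 1.57 and 1.92% in RCD. Library 8 gave the 4.41%, and the highest of the other AM132 libraries was 1.97%. The mean log2 CPM of the sum was 14.27 ± 0.93 in AM132 (13.97 ± 0.36 in the 7 libraries without library 8), 13.69 ± 0.28 in AM608 and 14.20 ± 0.24 in RCD (SD, n = 8 each). AM608 thus had the lowest sum, and all groups overlapped.

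Library 8 departed from its group by length. Its CPM over the median of the other 7 AM132 libraries was 4.83 at 16 nt, 5.94 at 18 nt, 7.26 at 19 nt, 12.4 at 20 nt, 21.3 at 21 nt, 9.97 at 22 nt and 24.4 at 23 nt, but 0.792 at 24 nt. In raw counts, it had 318 of the 23-nt fragment and 106 of the 24-nt fragment, where the other 7 AM132 libraries had 6 to 14 and 64 to 138. It held 80578 tRF counts in all, against 25849 to 41236 in those 7. Within library 8 the 23-nt fragment thus outnumbered the 24-nt fragment, which it did in none of the other 7.

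Among the fragments, log2 CPM of the 18-nt fragment followed that of its closest lengths most. Over the 23 libraries without AM132 library 8, Pearson's r with the 18-nt fragment was 0.62 for 16 nt, 0.48 for 19 nt and 0.42 for 20 nt, and it was -0.41 for 21 nt, -0.24 for 22 nt, -0.08 for 23 nt and -0.40 for 24 nt. Over all 24 libraries it was 0.76 for 16 nt, 0.70 for 19 nt, 0.67 for 20 nt and -0.54 for 24 nt. For 21, 22 and 23 nt it was then 0.36, 0.32 and 0.51, so the sign there depended on library 8. These points share libraries and depth, and they include the differences between groups. Outside the family, the tested tRFs most like it over all 24 libraries were tRF-18-PS5P4P0K (r = 0.92), tRF-19-PS5P4PJ4 (r = 0.76) and tRF-19-R2IP4OF4 (r = 0.73). Without library 8 the first 2 gave 0.86 each, while tRF-19-R2IP4OF4 gave 0.45 and was no longer among the 3 most alike; a tRF of 30 nt was then next, with 0.71.

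tRF-19-R2IP4OF4 belongs to a group of other codes (R2IP4O, RKIP4O and R2YJ8B) that lie outside the rule. They were grouped here as alanine 5′ starts, after their values were seen. R2YJ8B sequences read as those of RKIP4O without the first guanine, so they may not begin at the 5′ end. These codes were not matched to tRNA genes. The sequence of tRF-19-R2IP4OF4 shares with R29P4P the guanine run, in capitals, and the later stretch tagctca. It differs at some bases between and after them.
tRF-19-R2IP4OF4: GGGGaattagctcaaatgg
This code group had 22 fragments, of which only tRF-19-R2IP4OF4 was tested. It had 361, 660 and 5727 CPM in AM132, 287, 595 and 659 CPM in AM608, and 419, 649 and 971 CPM in RCD. AM132 against AM608 gave a log2 change of 1.35 ± 0.44 (SE, edgeR adjusted p = 0.0698), so it was not called. The change was 0.34 without library 8, also not called. Its highest value was again library 8, where the 22 fragments summed to 1058 counts, against 41 to 63 in the other 7 AM132 libraries.

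The untested fragments did not pass the filter on low counts. tRF-26-R29P4P9L5HD had 80.0, 178 and 320 CPM in AM132, 61.1, 170 and 325 CPM in AM608, and 0, 134 and 359 CPM in RCD, with all groups overlapping. tRF-17-R29P4PP had counts in 4 libraries, 3 of AM132 and 1 of AM608, and library 8 held 8 of its 13 counts. The 4 RK9P4P fragments had 14 counts in all, of which tRF-24-RK9P4P9LH9 had 6 in 6 libraries and tRF-19-RK9P4PJZ had 5 in 4 libraries. No test was run on these fragments, so whether the groups differ in them is not known.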

How the data were processed

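The 24 samples are small RNA libraries of mouse liver. Per the labels' protocols, 300 ng of total RNA (RIN above 8.4) entered each NEBNext small RNA library, and sequencing was on a NextSeq. The authors deposited raw counts per tRF sequence and per mature miRNA. FastQC is named in the submitters' processing notes. The aligner, the trimming, the build and how reads were assigned to tRFs are not given in the sources used. Counts are per sequence, so tRNA copies that share a fragment's sequence are counted together and cannot be told apart. The labels mention no molecular identifiers, so PCR copies are counted as reads.

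Groups came from sample titles. All 84 pairs of libraries from the same group differed by more than sampling noise, with a chi-square of at least 2.10 per degree of freedom. The test was that of edgeR 4.0.16 under R 4.3.3 (robust quasi-likelihood fit, TMM, filterByExpr, group only, all 24 libraries), adjusted over 295 tested tRFs at a threshold of 0.05. An SE is the absolute log2 fold change divided by the square root of F. Summed log2 CPM used a prior of 0.5 counts. Alternatives were other scalings, filters, DESeq2 1.42.0, limma 3.58.1 voom, a replicate block and leaving out libraries. The fit was tested on simulated data.

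The fragments, marker lists and tests were chosen with earlier results of these data known. Named are the 3 tested fragments of each code with the highest mean CPM, up to 6 called in each direction per comparison, and the 3 tested tRFs most like the most abundant fragment. Other fragments are given by range.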

Additional observations from a re-analysis of the deposited data

Results flagged for a closer look

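AM132 library 8 was the highest of its group of 8 by a wide gap in 5 measures, where the gap to the next library is given as a share of the group's whole range. It was 0.726 for tRF-18-R29P4P04, 0.809 for tRF-19-R29P4PJZ, 0.947 for tRF-20-R29P4P9L and 0.663 for tRF-16-R29P4PE. It was 0.757 for the summed fragments as a percent of tRF counts. Of the named fragments only tRF-24-R29P4P9LH9 was not set apart in this library. Dixon's test was run on 21 groups, and chance marks about 1 in 20. All 5 come from the same library, so they are not independent. The cause was not tested.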

How the results depend on the processing

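The count of called fragments moved by over 1.5 times under some settings. AM132 against AM608 called 5, but 1 with limma voom, 3 with only those groups in the fit, 3 with the replicate block and 3 without AM132 library 8 and RCD library 3; leaving out 1 library gave 1 to 5. AM608 against RCD called 2, but 0 with miRNA totals, 1 with no filter, and 0 to 3 leaving out 1 library: 0 without AM608 library 3, 4, 5, 6 or 8 or RCD library 2, 4, 5 or 8, and 1 without AM132 library 5 or 6, AM608 library 7 or RCD library 1 or 3. AM132 against RCD called 1, but 0 with totals of all tRF counts, 4 with miRNA totals (all higher), 4 with DESeq2 and 3 without AM132 library 8 and RCD library 3. Leaving out 1 library gave 1 to 3, with 2 without AM132 library 3, 5 or 7 or RCD library 3 and 3 without AM132 library 8. With miRNA totals, 133 of the 295 tested tRFs were called higher in AM132 than in RCD, so 4 of 8 is near that background. Among all tested tRFs, leaving out 1 library called 4 to 20 in AM132 against AM608, 6 to 31 in AM608 against RCD and 37 to 62 in AM132 against RCD. Over all alternative settings these ranges were 4 to 208, 5 to 44 and 32 to 191. The AM608 against RCD difference in summed log2 CPM was -0.51, but -0.17 with miRNA totals and -0.23 with no filter.

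Signs turned in values that were not called with all libraries and the chosen fit; of the turned values, those at 20 nt without AM132 library 8 (-0.88, adjusted p = 0.00526), without both libraries (-0.97, adjusted p = 0.000814) and with DESeq2 passed the threshold. For AM608 against RCD, the 24-nt log2 fold change was -0.020 with RLE factors, -0.029 at a mean of at least 10 counts, -0.022 with DESeq2, -0.062 without both libraries and -0.060 to 0.10 leaving out 1. For AM132 against RCD, voom, the replicate block and leaving out both libraries gave -0.22, -0.19 and -0.36 at 19 nt, -0.37, -0.31 and -0.97 at 20 nt, and -0.17, -0.13 and -0.34 at 16 nt. Leaving out 1 library gave -0.55 to 0.42 at 19 nt, -0.88 to 0.60 at 20 nt and -0.42 to 0.32 at 16 nt. DESeq2 gave -0.87 at 20 nt (adjusted p = 0.00039). With the replicate block, the log2 fold changes of AM132 against AM608 that were called were 1.17 at 16 nt, 1.53 at 20 nt and -0.72 at 24 nt. The labels do not state that replicate numbers pair the samples. Same-numbered libraries of different groups correlated at a median of 0.17 (-0.29 to 0.47), with 13 of 24 pairs above 0.1. Of the 24 libraries, 4 correlated best with their own number. Differently numbered pairs were not summarised beside these, so the values cannot decide whether samples are paired. Over all tested tRFs, no filter gave 208 calls in place of 15 between AM132 and AM608, 5 in place of 13 between AM608 and RCD, and 191 in place of 45 between AM132 and RCD. The cause was not tested.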
